A study of Mus musculus with 2 samples.

Results

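The 38 genes described here encode enzymes that remove peroxides and superoxide, the thioredoxin and glutathione systems that supply those enzymes with electrons, and the NRF2 and KEAP1 proteins that control many of them. They were listed by gene name, and all 38 were found among the 46095 genes of the deposited count table. Of these, 34 had at least 20 counts over both libraries and are called counted below. Gsta4, Nqo1, Gpx7 and Gpx8 did not reach that minimum.

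RNA was sequenced from leukaemia-initiating cells of a mouse acute myeloid leukaemia, sorted from bone marrow as positive for Mac1 and c-Kit. The series holds 1 library labelled wild type and 1 labelled P2x7-KO, both from C57BL/6 mice aged 8 weeks. P2x7, the product of P2rx7, is a membrane channel opened by ATP outside the cell. The library titles end in Scr and KD while the genotype field reads wild type and P2x7-KO, and neither the way the leukaemia was made nor any pooling of mice is stated in the labels.

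The libraries held 12456212 counts (wild type label) and 12435916 counts (P2x7-KO label). P2rx7 had 229 counts in the former and 543 in the latter, a 2.27-fold higher level (1.94 to 2.66), so the targeted gene went against its label and both libraries are named by their labels here. Adjusted for transcript length and GC content, as described below, the log2 ratio of P2rx7 was 0.82 (0.59 to 1.05), under 2-fold. Counts of P2rx7 RNA do not show whether a working product was made. Whether the labels are exchanged was not tested. If they were, each higher and lower given here would be turned. The sort genes Kit and Itgam were present in each library, at 559 and 861 counts and at 2274 and 6910 counts respectively. Under the P2x7-KO label Itgam was 2.90-fold higher (2.77 to 3.05) and Kit 1.47-fold higher (1.32 to 1.64). With the same adjustment their log2 ratios were 1.16 (1.10 to 1.23) and 0.11 (-0.05 to 0.26). Both sort genes thus differed between the libraries as counted, and after adjustment Itgam still did while the interval of Kit included 0. With 1 library per group there is no spread between replicates and no test. Ratios are of TMM-scaled counts, the library labelled P2x7-KO over the library labelled wild type. Their 95% intervals (Clopper-Pearson) cover counting error only. Levels are in CPM, TMM-scaled counts per 1000000 counts of a library. Where a pair of values has no label beside it, the value under the wild type label comes first. In cells measured together, fewer cells of a type and less RNA per cell cannot be told apart.

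Hydrogen peroxide and lipid peroxides are reduced by glutathione peroxidases, which use glutathione, and by peroxiredoxins, most of which use thioredoxin. Oxidised glutathione and oxidised thioredoxin are then returned to their reduced forms by glutathione reductase and thioredoxin reductases, with electrons from NADPH. The transcription factor NRF2, held down by KEAP1 in unstressed cells, raises many of these genes after oxidative or electrophilic stress. In myeloid cells the same systems work beside an NADPH oxidase that makes superoxide for killing microbes.

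Under the P2x7-KO label Gsr, Gclc and Gclm, of glutathione reduction and synthesis, were higher, at 1.83-fold, 1.40-fold and 1.57-fold. Gss, of the same pathway, was at 1.02-fold lower, with an interval that includes equality. Prdx1, Prdx2, Prdx6, Txn1 and Txn2 were lower there, by 1.48-fold to 1.93-fold. Not all relatives went the same way: Prdx4 was 1.51-fold higher, and Gstm1, a glutathione S-transferase gene, was 1.59-fold lower. The furthest apart was Mgst1, which encodes a membrane-bound glutathione S-transferase, at 2.87-fold higher. Apart from Mgst1 and Gstp1, the counted genes differed by less than 2-fold.

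Of the 34 genes counted, 2 were at least 2-fold higher in the library labelled P2x7-KO and 0 at least 2-fold lower, with an interval that excludes equality. Among all 13363 genes counted, 10.8% were called higher by this rule and 8.95% lower, so the share of these genes past 2-fold, 5.88% and 0%, was not above that of the table as a whole. With no fold limit, the interval excluded equality for 10 that were higher and 14 that were lower, against 35.6% and 34.7% of all genes counted. As shares of the 34 these are 29.4% and 41.2%. A 1.5-fold limit took 6 as higher and 5 as lower, where 21.1% and 18.9% of all genes passed. Their median log2 ratio was -0.10, beside 0.00 over all genes counted, and single genes ran from -0.95 to 1.52.

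**Figure D1:**
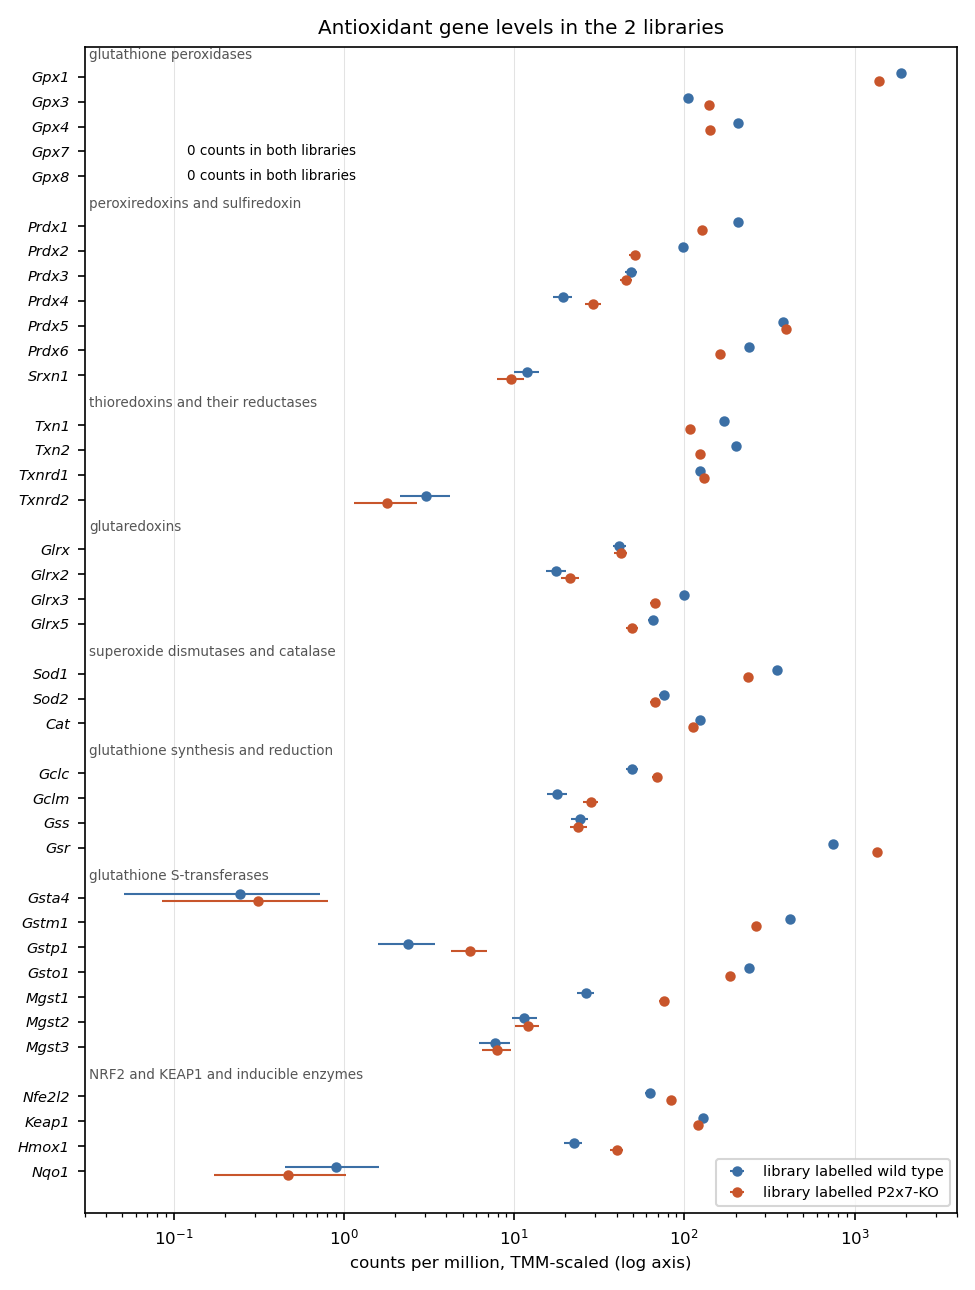
Level of each of the 38 genes in the library labelled wild type (blue) and the library labelled P2x7-KO (orange), in CPM on a log axis, grouped by role. Bars are exact 95% Poisson intervals (counting error only), hidden where narrower than the point. Gsr stands at 743 and 1363 CPM and Mgst1 at 26.4 and 75.6 CPM, while most pairs lie close together.

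Transcript length went along with the ratio over the whole table. The median log2 ratio was -0.64 over 1711 genes with transcripts of up to 1000 bases and 0.45 over 3274 genes with transcripts of 4001 bases or more. Spearman's rho across the genes counted was 0.45, a description across genes of the same 2 libraries. The genes described here had shorter transcripts, with a median of 1590 bases against 2634. Among the 34 the ratio hardly followed length, with a rho of 0.06. For most genes a second value is therefore given, the log2 ratio adjusted for transcript length and GC content, taken from the trend over 12652 genes. After this adjustment 15 of the 34 were higher beyond counting error and 10 lower, against 30.9% and 32.6% of all genes, and the median was 0.09. At least 2-fold apart were then 3 higher and 0 lower, against 7.99% and 5.45%. With the trend of length alone taken out these were 4 and 0, against 8.49% and 5.83%.

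**Figure D2:**
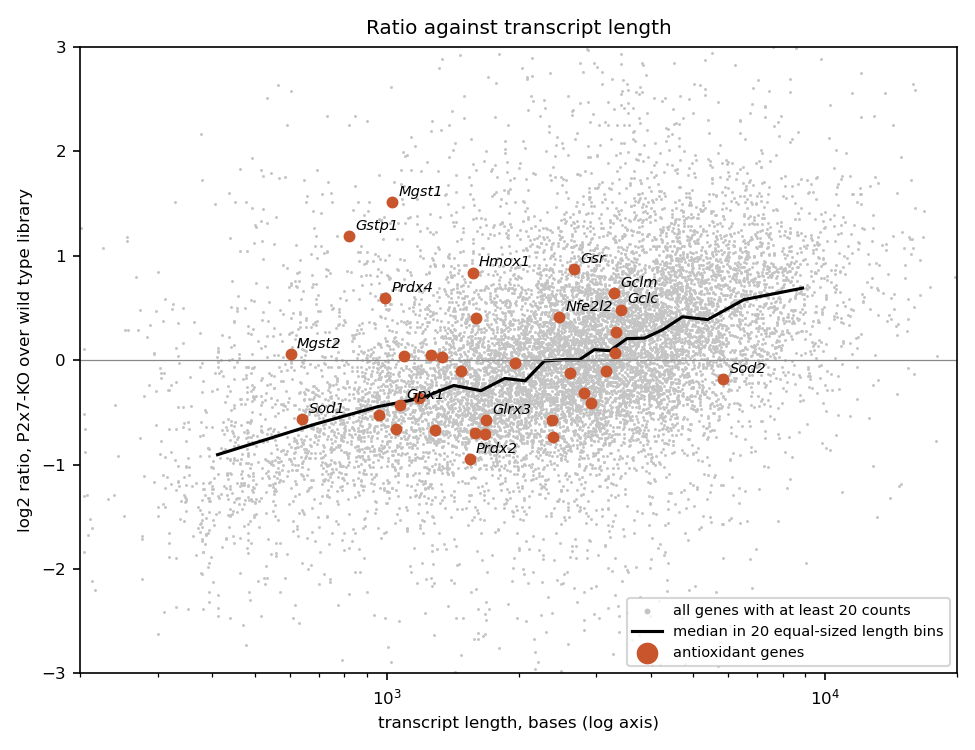
Log2 ratio (library labelled P2x7-KO over library labelled wild type) against transcript length in bases on a log axis, for all genes with at least 20 counts (grey) and the 34 antioxidant genes (orange). The black line joins medians of 20 equal-sized length bins and climbs with length; 230 genes lie outside the axes. Mgst1 and Gstp1 sit far above the line, and Prdx2 below it.

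Direction held for 16 of the 34 across 8 settings, which were TMM scaling, 4 other scalings and 3 forms of the adjustment. Beyond counting error in each of them, 9 were higher (Gpx3, Prdx4, Gclc, Gclm, Gsr, Gstp1, Mgst1, Nfe2l2 and Hmox1) and 7 were lower (Prdx1, Prdx2, Prdx6, Txn1, Txn2, Glrx3 and Gstm1). These are 26.5% and 20.6% of the 34, beside 21.5% and 21.2% of 12652 genes over the same settings. The other 18 lost their side of equality, or had none, in at least 1 setting.

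Per transcript length, Gpx1 had the highest level of the 38 in both libraries. It stood at 1756 CPM per kilobase of transcript under the wild type label and at 1303 under the P2x7-KO label. In the former Sod1 (549), Gstm1 (324), Prdx5 (302) and Gsr (278) followed. In the latter Gsr (509.8) came second, before Sod1 (371), Prdx5 (312) and Gstm1 (204). Mgst1 moved from rank 20 to rank 12 and Prdx2 from rank 13 to rank 19. At the other end Txnrd2, Nqo1 and Gsta4 were under 1.5 CPM per kilobase in each library. Gsr took 11.9% of the counts of all 38 genes in the library labelled wild type (11.7 to 12.2, exact binomial) and 23.8% in the other (23.4 to 24.1). The share of Gpx1 was 30.2% (29.9 to 30.5) and 24.3% (24.03 to 24.6). Gpx1 and Gsr thus held a large part of the counts of these genes in both libraries.

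**Figure D3:**
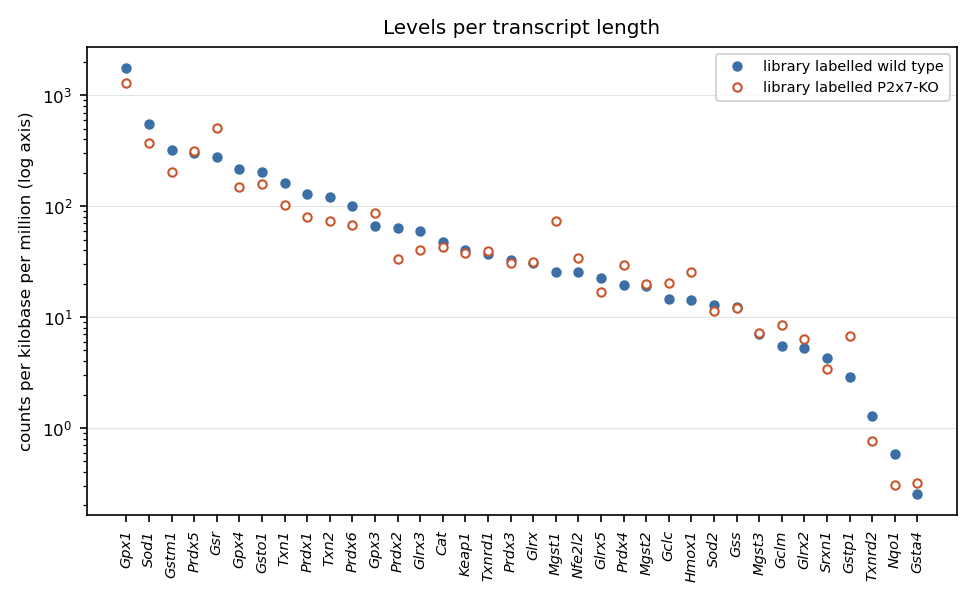
Level per transcript length of the 36 genes with any count, in CPM per kilobase on a log axis, ordered by the library labelled wild type (filled blue); open orange circles are the library labelled P2x7-KO. Gpx1 leads at 1756 and 1303, and Gsr and Mgst1 stand higher in the order under the P2x7-KO label.

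Glutathione peroxidases reduce peroxides with glutathione, and 3 of the 5 were counted. Gpx1, the cytosolic enzyme, lies at chr9:108338903-108340343, plus strand (mm10; GENCODE M21 annotation). It had 22893 counts under the wild type label and 17781 under the P2x7-KO label, or 1882 and 1396 CPM, a 1.35-fold lower level (1.32 to 1.37). Gpx4, which reduces lipid peroxides in membranes and guards against ferroptosis, had 205.7 and 142.5 CPM, 1.44-fold lower (1.36 to 1.53). For both genes the sign of the difference depended on the adjustment. Their log2 ratios of -0.43 and -0.53 became 0.16 (0.13 to 0.19) and 0.16 (0.07 to 0.25). Gpx3, the secreted plasma enzyme, went the other way, with 105.5 and 139.2 CPM, 1.32-fold higher (1.23 to 1.42), and an adjusted log2 ratio of 0.80. Gpx7 and Gpx8, which act in the endoplasmic reticulum, had 0 counts in each library, below a limit of 0.247 and 0.236 CPM for 3 counts.

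Gpx1, Gpx3, Gpx4, Txnrd1 and Txnrd2 carry selenocysteine at the active site. It is read from a TGA codon that elsewhere ends translation, so these 5 are shown around that codon. The sequences are coding strand, GENCODE M21 transcripts, with TGA in capitals.
Gpx1: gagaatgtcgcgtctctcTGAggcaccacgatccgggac
Gpx3: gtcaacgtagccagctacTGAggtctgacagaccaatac
Gpx4: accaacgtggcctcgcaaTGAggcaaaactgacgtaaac
Txnrd1: atcctccagtctggctgcTGAggt
Txnrd2: cctactgtgactggttgcTGAggc
The codons lie at chr9:108339451-108339453, chr11:54907256-54907258, chr10:80054737-80054739, chr10:82896037-82896039 and chr16:18477772-18477774, all on the plus strand of mm10. In the peroxidases the codon lies inside the coding sequence, with 124 to 154 codons after it. In both thioredoxin reductases 1 codon follows before the stop. As counted these 5 had no common direction: 1 was higher beyond counting error (Gpx3), 2 were lower (Gpx1 and Gpx4) and 2 were neither. Of all genes counted, 35.6% were higher and 34.7% lower by this rule. After adjustment for length and GC content Gpx1, Gpx3 and Gpx4 were all higher, and Txnrd1 and Txnrd2 were neither. The shares of all genes were then 30.9% higher and 32.6% lower. With length alone taken out, Gpx1 and Gpx4 were neither.

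Among peroxiredoxins, thiol peroxidases that most often take electrons from thioredoxin, 3 of 6 were lower beyond counting error, 1 was higher and 2 were neither. By this rule 34.7% of all genes counted were lower and 35.6% higher. Prdx2 (chr8:84969587-84974834, plus strand) had 1199 and 651 counts under the wild type and P2x7-KO labels. At 98.6 and 51.1 CPM it was 1.93-fold lower (1.75 to 2.12), the furthest apart in that direction and just short of 2-fold. Its adjusted log2 ratio was -0.76 (-0.90 to -0.62). Of the 3050 annotated exon bases of Prdx2, 173 are shared with Junb, an immediate early gene on the opposite strand. Junb was itself lower, with 5769 and 2660 counts, and without a stated strand setting reads in the common part cannot be told apart. Rnaseh2a shares a further 177 bases and had 1014 and 556 counts.

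Prdx1, the most widely expressed cytosolic member, had 206.3 and 126.9 CPM, a 1.62-fold lower level (1.53 to 1.73), and its log2 ratio of -0.70 stayed at -0.70 after adjustment. Prdx6, which uses glutathione in place of thioredoxin, had 240.4 and 162.1 CPM, 1.48-fold lower (1.40 to 1.57), with an adjusted log2 ratio of -0.64. So Prdx1, Prdx2 and Prdx6 shared 1 direction in every setting. Prdx3, Prdx4 and Prdx5 were not lower beyond counting error in any setting. Prdx3, in mitochondria, had 48.8 and 45.5 CPM, with an interval that includes equality (1.07-fold lower, 0.955 to 1.20) and an adjusted log2 ratio of -0.05. Prdx5, in mitochondria and peroxisomes, had 381.5 and 393.8 CPM (1.03-fold, 0.992 to 1.07), and its log2 ratio of 0.05 became 0.62 after adjustment. Prdx4, in the endoplasmic reticulum, was higher at 19.3 and 29.1 CPM (1.51-fold, 1.28 to 1.78), with an adjusted log2 ratio of 0.95. Srxn1, the sulfiredoxin that repairs over-oxidised peroxiredoxins, had 145 and 122 counts (1.24-fold lower, 0.971 to 1.60), a difference not detectable at this depth.

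Thioredoxins, small proteins that pass electrons to peroxiredoxins and ribonucleotide reductase, were lower in both compartments. Txn1, in the cytosol, had 2076 and 1377 counts, or 170.7 and 108.1 CPM, 1.58-fold lower (1.47 to 1.69). Txn2, in mitochondria, had 2454 and 1578 counts, or 201.7 and 123.9 CPM, 1.63-fold lower (1.53 to 1.74). After adjustment the log2 ratios were -0.43 and -0.37, and both intervals still excluded 0. Their reductases were not lower beyond counting error. Txnrd1, the cytosolic one, had 123.8 and 129.97 CPM (1.05-fold, 0.978 to 1.13), with an adjusted log2 ratio of -0.08. It came out higher with total count or DESeq2 scaling and lower in 1 form of the adjustment. Txnrd2, the mitochondrial one, had 37 and 23 counts (1.68-fold lower, 0.975 to 2.97), too few to place it.

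Glutaredoxins remove glutathione from proteins or carry iron-sulfur clusters, and of 4 counted 2 were lower beyond counting error and 1 was higher. The shares over all genes counted were 34.7% lower and 35.6% higher. Those lower were the iron-sulfur members Glrx3 and Glrx5. Glrx3 had 100.3 and 67.4 CPM (1.49-fold, 1.36 to 1.63) and Glrx5 had 65.5 and 49.2 CPM (1.33-fold, 1.20 to 1.48). Their adjusted log2 ratios were -0.55 and -0.39, but Glrx5 included equality in 1 form of the adjustment. Glrx, the cytosolic thiol enzyme, had 41.4 and 42.4 CPM (1.02-fold, 0.905 to 1.16). Glrx2, of mitochondria and nucleus, had 17.6 and 21.3 CPM (1.21-fold higher, 1.01 to 1.45), and its log2 ratio of 0.27 became -0.06.

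The superoxide dismutases and catalase, which turn superoxide to peroxide and peroxide to water, were all lower as counted, with differences of unlike size. Beyond counting error 34.7% of all genes counted were lower. Sod1, the cytosolic copper-zinc enzyme, had 4281 and 3031 counts, or 351.9 and 238.02 CPM (1.48-fold lower, 1.41 to 1.55). With one of the shortest transcripts of the list, 641 bases, its log2 ratio of -0.56 became 0.06 (-0.01 to 0.13). Sod2, the mitochondrial manganese enzyme, had 75.96 and 67.1 CPM (1.13-fold lower, 1.03 to 1.24). Its transcript of 5861 bases was the longest of the list and its log2 ratio of -0.18 became -0.85 (-0.99 to -0.72). Cat stood at 123.3 and 112.9 CPM (1.09-fold lower, 1.02 to 1.17), with an adjusted log2 ratio of -0.21. Sod2 and Cat included equality with total count scaling, and Cat also with DESeq2 size factors.

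**Figure D4:**
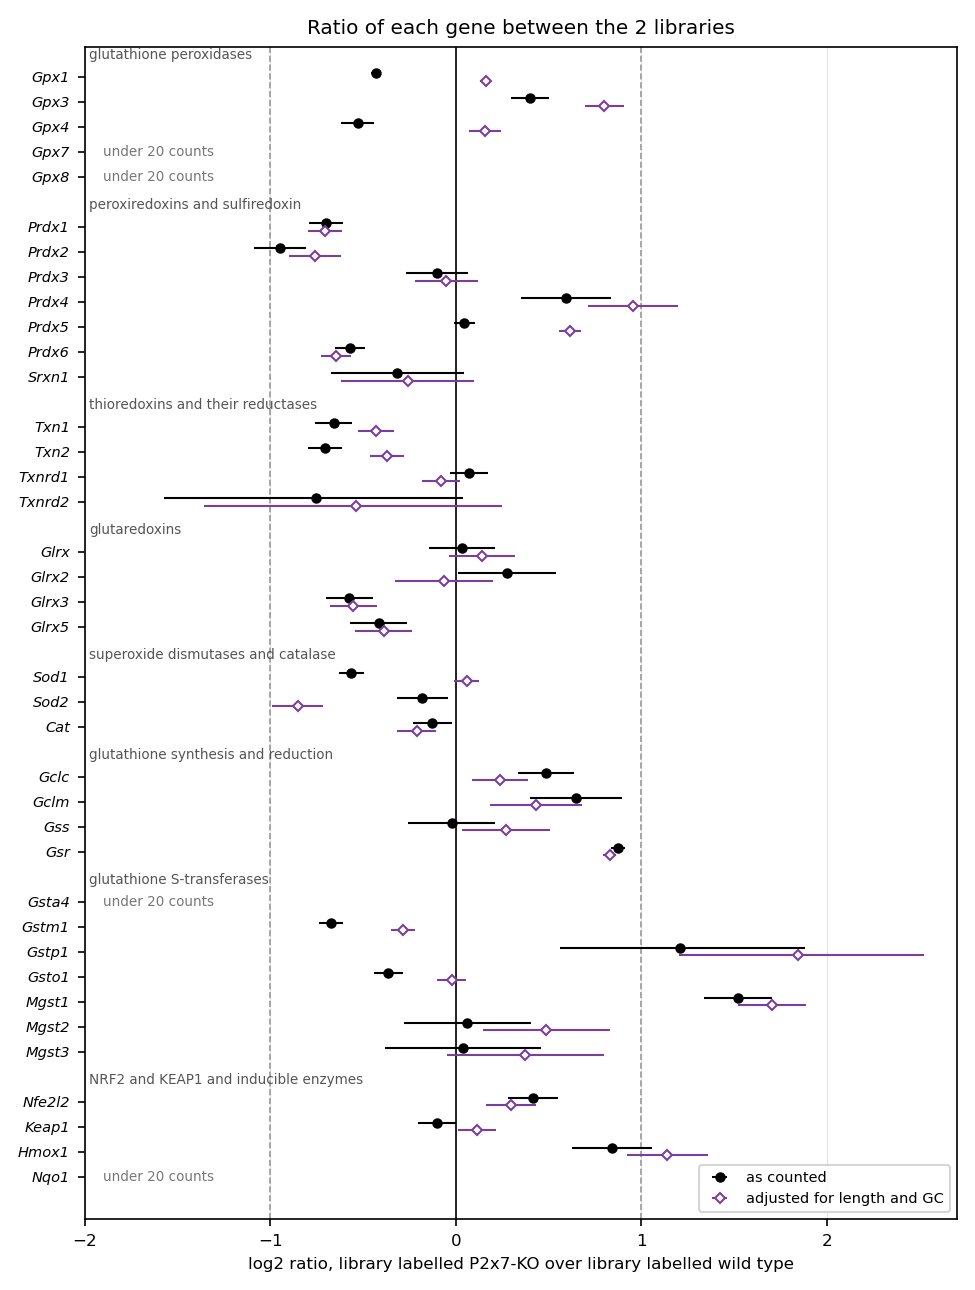
Log2 ratio of each gene (library labelled P2x7-KO over library labelled wild type) as counted (black circles) and with the length and GC trend taken out (open violet diamonds), with 95% counting intervals; dashed lines mark 2-fold. With intervals clear of 0 both ways, Gsr, Gclc, Gclm, Nfe2l2, Hmox1, Mgst1, Gpx3, Prdx4 and Gstp1 lie right. Prdx1, Prdx2, Prdx6, Txn1, Txn2, Glrx3, Glrx5, Sod2, Cat and Gstm1 lie left in the same way, and Gpx1 and Gpx4 cross.

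Glutathione is made by glutamate-cysteine ligase, with a catalytic subunit (Gclc) and a modifier subunit (Gclm), and then by glutathione synthetase (Gss), and its oxidised form is reduced by glutathione reductase (Gsr). Of these 4 genes 3 were higher beyond counting error and 0 lower. Among all genes counted 35.6% were higher and 34.7% lower by this rule. Gsr, at chr8:33652523-33698163 (plus strand), had 9044 counts under the wild type label and 17354 under the P2x7-KO label. At 743.5 and 1363 CPM it was 1.83-fold higher (1.79 to 1.88), and its adjusted log2 ratio was 0.83 (0.79 to 0.87) from 0.87. No other gene of the 38 was higher by as many CPM.

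Gclc had 603 and 884 counts, or 49.6 and 69.4 CPM, 1.40-fold higher (1.26 to 1.56). Gclm had 219 and 359 counts, or 18.0 and 28.2 CPM, 1.57-fold higher (1.32 to 1.86). The subunit genes were thus higher by like amounts, and their adjusted log2 ratios were 0.24 and 0.43. Exons of Gclm overlap 2 other annotated genes, 1 of which, Gm6061, is in the table with 306 and 244 counts. Gm6061 lies on the same strand and shares 244 of the 6291 annotated exon bases of Gclm. It was 1.31-fold lower (1.11 to 1.56), with an adjusted log2 ratio of 0.19 (-0.06 to 0.44). Strand cannot separate reads in the common part, and their share in the ratio of Gclm was not tested. Gss had 24.2 and 23.9 CPM (1.02-fold lower, 0.863 to 1.20), and its adjusted log2 ratio was 0.27 (0.03 to 0.51). Acss2 on the opposite strand shares 395 of the exon bases of Gss and had 52 and 157 counts.

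Glutathione S-transferases attach glutathione to reactive compounds, and their members spread most widely. Mgst1, in mitochondrial and endoplasmic reticulum membranes, lies at chr6:138140316-138156755, plus strand. It had 321 counts under the wild type label and 963 under the P2x7-KO label, or 26.4 and 75.6 CPM, a 2.87-fold higher level (2.52 to 3.26). After adjustment the log2 ratio was 1.70 (1.52 to 1.89), from 1.52. The related Mgst2 and Mgst3 did not share this size. They had 140 and 153 counts (1.04-fold, 0.825 to 1.32) and 94 and 101 counts (1.03-fold, 0.767 to 1.37). The intervals of both exclude the 2-fold limit that Mgst1 passed. Their adjusted log2 ratios were 0.49 (0.15 to 0.83) and 0.37 (-0.04 to 0.80).

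Gstp1, of the pi class, had 29 and 70 counts, or 2.38 and 5.50 CPM (2.31-fold higher, 1.48 to 3.69), the other gene past the 2-fold limit. Its adjusted log2 ratio was 1.83 (1.20 to 2.52). It has near-identical neighbours, so the handling of reads that match several genes bears on its value. Gstp2 had 0 and 2 counts. Gstm1, of the mu class, was lower at 417.9 and 262.4 CPM (1.59-fold, 1.52 to 1.66), with an adjusted log2 ratio of -0.28, and it too has close relatives. Gsto1, of the omega class, had 240.1 and 186.7 CPM (1.29-fold lower, 1.22 to 1.36) and an adjusted log2 ratio of -0.02 (-0.10 to 0.06). Gsta4, of the alpha class, had 3 and 4 counts, a ratio of 1.27 (0.216 to 8.70).

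Nfe2l2 encodes NRF2, and Keap1 the adaptor that marks it for breakdown. Nfe2l2 had 765 and 1068 counts, or 62.9 and 83.9 CPM, 1.33-fold higher (1.21 to 1.46). Its adjusted log2 ratio was 0.30 (0.16 to 0.43). Keap1 had 128.7 and 119.99 CPM (1.07-fold lower, 0.998 to 1.15), an interval that just includes equality. Its adjusted log2 ratio was 0.11, and it changed sides between settings. Hmox1, the haem oxygenase that opens haem to biliverdin, iron and carbon monoxide, had 272 and 510 counts, or 22.4 and 40.1 CPM (1.79-fold higher, 1.54 to 2.08). Its adjusted log2 ratio of 1.14 (0.92 to 1.36) passed 2-fold. Nqo1, a quinone reductase often used as a readout of NRF2, had 11 and 6 counts (a ratio of 0.521, 0.158 to 1.54), too few to place.

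NRF2 binds the antioxidant response element, whose core TGACNNNGC was searched on both strands of RefSeq promoter windows (GRCm38.p6, 250 bases before to 50 after a start). Windows were matched for 33 of the 38 genes and were not matched for Gsr, Hmox1, Gclc, Prdx6 and Gsta4. The core stood in a window of 7 of the 33 genes (21.2%), beside 14% of all 27025 genes with windows. The 6 matches before a start are shown on the strand of the gene, with the core in capitals, because genes that were higher and lower are both among them.
Mgst1: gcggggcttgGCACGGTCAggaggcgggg
Gclm: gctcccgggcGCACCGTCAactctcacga
Nfe2l2: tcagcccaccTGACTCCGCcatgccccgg
Txnrd1: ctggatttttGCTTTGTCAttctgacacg
Sod1: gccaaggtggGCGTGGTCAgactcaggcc
Prdx1: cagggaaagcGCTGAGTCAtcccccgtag
They lie at chr6:138140461-138140489, chr3:122245413-122245441, chr2:75704885-75704913 (minus strand), chr10:82859104-82859132, chr16:90220696-90220724 and chr4:116685456-116685484. The matches of Mgst1 and Txnrd1 lie inside the GENCODE M21 spans of these genes, chr6:138140316-138156755 and chr10:82833951-82897712. These matches precede the start of a RefSeq window and not the first annotated base of the gene. The remaining match, in Srxn1, lies after the start. Only the Prdx1 match overlaps the AP-1 motif TGANTCA (both strands). That motif stands in a window of 5 of the 33 genes (15.2%), beside 8.97% of all genes. Of these 6 genes 3 were higher beyond counting error as counted, 2 were lower and 1 was neither. Over all genes counted the shares were 35.6% higher and 34.7% lower. A match describes letters in the window and not a site in use.

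Other genes of the NRF2 and KEAP1 circuit went both ways. Of 24 counted, 2 were at least 2-fold higher and 0 lower, with 10 higher and 10 lower beyond counting error and a median log2 ratio of 0.03. Past 2-fold, 10.8% of all genes counted were higher and 8.95% lower. With no fold limit these shares were 35.6% and 34.7%. The same shares of all genes stand beside the counts of each list that follows, the cell type markers included. The 2 genes of this list past 2-fold were Bach1 and Bach2. Bach1, a repressor that competes with NRF2 at Hmox1, had 39.9 and 91.3 CPM (2.29-fold, 2.06 to 2.55). Bach2 had 4 and 21 counts (5.02-fold, 1.69 to 20.1). The adjusted log2 ratio of Bach1 was 0.64, under 2-fold, and that of Bach2 was 1.55. The ferritin genes, also NRF2 targets, lay on the other side from Hmox1, and they are named after their values were seen. Fth1 had 15455 and 8814 counts (1.84-fold lower, 1.79 to 1.88) and Ftl1 had 23945 and 15865 counts (1.58-fold lower, 1.55 to 1.61). After adjustment the log2 ratio was -0.47 for Fth1 and -0.00 for Ftl1.

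Of 13 further genes of glutathione supply and breakdown, 0 were at least 2-fold higher and 2 lower, with a median log2 ratio of -0.39. The 2 were Cbs, of transsulfuration, with 16 and 4 counts (4.19-fold, 1.35 to 17.2), and Ggt5, with 27 and 13 counts (2.17-fold, 1.08 to 4.59), with adjusted log2 ratios of -2.12 and -1.35. With no fold limit, 2 were higher and 8 lower. Of 11 other glutathione S-transferases and peroxidases, 2 were lower by 2-fold or more and 1 was higher, with a median log2 ratio of -0.22. Gstm2 had 78 and 14 counts (5.83-fold lower, 3.28 to 11.2) and Gstm5 143 and 58 (2.58-fold lower, 1.89 to 3.57), the same direction as Gstm1. Ptges, a prostaglandin synthase of the Mgst1 superfamily, had 94 and 201 counts (2.04-fold higher, 1.59 to 2.64). After adjustment Gstm2 stayed past 2-fold (log2 ratio -2.13), and Gstm5 (-0.98) and Ptges (0.94) did not.

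Among 28 other thioredoxin-fold and methionine sulfoxide reductase genes, 3 were at least 2-fold higher and 1 lower, with 7 higher and 14 lower beyond counting error and a median log2 ratio of -0.18. The protein of Txnip binds and blocks thioredoxin. Txnip had 2315 and 5185 counts, or 190.3 and 407.2 CPM (2.14-fold higher, 2.04 to 2.25), opposite in direction to Txn1 and Txn2. Its adjusted log2 ratio was 0.98, just under 2-fold. Txndc16 and Tmx3 were 2.23-fold and 2.11-fold higher and had adjusted log2 ratios of 0.73 and 0.37. Msrb2, of mitochondria, was 2.24-fold lower (1.79 to 2.82), with an adjusted log2 ratio of -0.86, under 2-fold. Of 20 other selenoprotein genes and genes of selenocysteine insertion, 2 were at least 2-fold higher and 1 lower, with 6 higher and 10 lower beyond counting error and a median log2 ratio of -0.15. Sepp1 (selenoprotein P) had 261 and 690 counts (2.53-fold, 2.19 to 2.92), Dio2 154 and 394 counts (2.44-fold, 2.02 to 2.96), and Sepw1 (selenoprotein W) 1202 and 531 counts (2.37-fold lower, 2.14 to 2.63). After adjustment Sepp1 stayed past 2-fold (log2 ratio 1.20), and Dio2 (0.65) and Sepw1 (-0.52) did not.

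The phagocyte NADPH oxidase makes the superoxide that these enzymes remove. Of 8 subunit genes counted, 1 was at least 2-fold higher and 0 lower, with 5 higher and 2 lower beyond counting error and a median log2 ratio of 0.22. Cybb, the catalytic subunit, had 1453 and 7581 counts, or 119.4 and 595.3 CPM (4.98-fold higher, 4.71 to 5.28), and an adjusted log2 ratio of 1.75. Its membrane partner Cyba, named after its values were seen, had 4960 and 4037 counts (1.29-fold lower, 1.23 to 1.34), a log2 ratio of -0.36 that turned to 0.43 after adjustment. The 2 genes of this membrane pair thus differed between the libraries by unlike amounts.

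**Figure D5:**
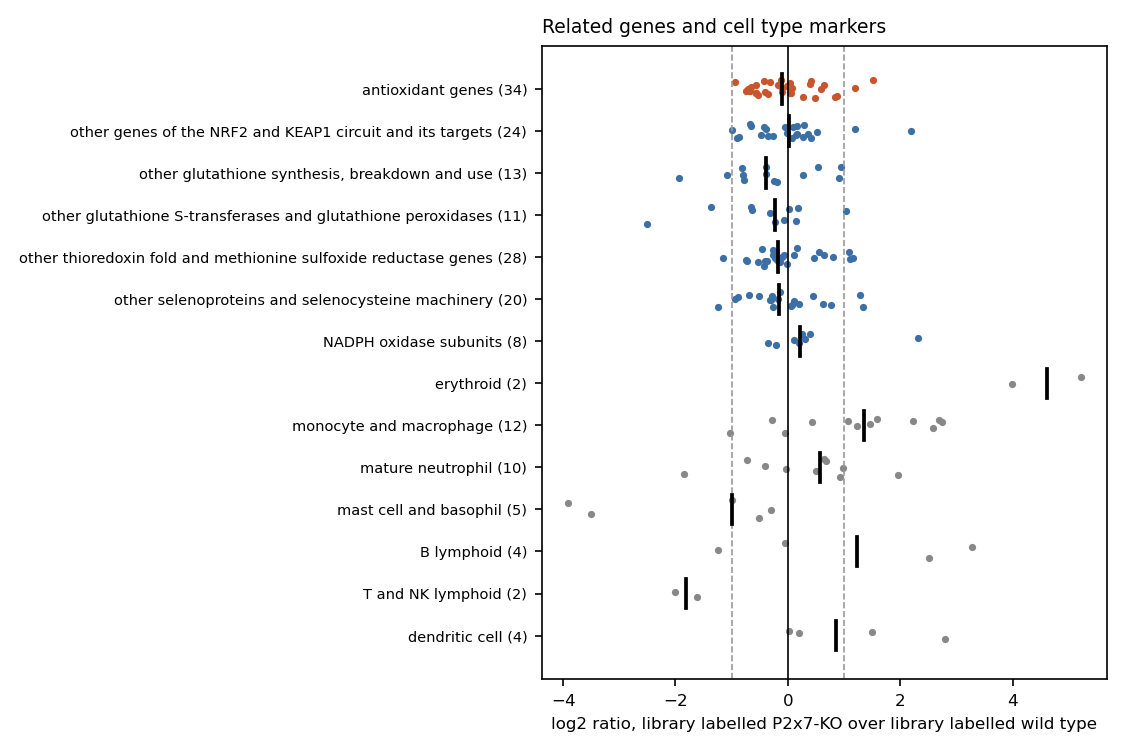
Log2 ratio (library labelled P2x7-KO over library labelled wild type) of each gene with at least 20 counts in the antioxidant list (orange), 6 lists of related genes (blue) and 7 lists of cell type markers (grey), with the number counted in brackets and a bar at the median. Medians of the related lists run from -0.39 (glutathione synthesis, breakdown and use) to 0.22 (NADPH oxidase), and those of the marker lists from -1.81 (T and NK) to 4.60 (erythroid, 2 genes).

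Markers of blood cell types differed between the libraries too. Whether the myeloid markers came from the sorted leukaemia cells or from other cells was not tested. The summed level of 12 monocyte and macrophage markers was 2518 CPM under the wild type label and 5359 under the P2x7-KO label. Past 2-fold, 8 of these 12 were higher and 1 was lower, and none of them was at 0 counts. The sums of 10 mature neutrophil markers were 1789.8 and 2334 CPM, with 1 higher and 1 lower past 2-fold, and those of 9 mast cell and basophil markers 520.9 and 111.5 CPM, with 0 higher and 2 lower past 2-fold of 5 counted and Fcer1a, Tpsb2 and Cma1 at 0 in both. Erythroid markers were near 0, with 9 of them summing to 1.31 and 11.9 CPM. The 2 counted, Hbb-bs and Hba-a1, were both at least 2-fold higher, with 1 and 58 and with 2 and 41 counts, and Alas2, Slc4a1 and Epor were at 0 in the library labelled wild type. The 8 B lymphoid markers summed to 131.8 and 99.3 CPM, with 2 higher and 1 lower past 2-fold of 4 counted. The 8 T and NK markers summed to 35.02 and 12.4 CPM, with both of the 2 counted at least 2-fold lower and Trac at 0 in both. The 7 dendritic cell markers summed to 829 and 919 CPM, with 2 of 4 counted at least 2-fold higher, 0 lower, and H2-Aa and Xcr1 at 0 in both. The part of these cell types in the ratios of Mgst1, Gsr, Hmox1 and the other genes described was not tested.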

How the data were processed

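RNA-seq counts of 2 libraries were analysed, 1 per genotype label. The authors deposited raw counts per gene. Alignment tool and build are HISAT2 2.0.4 and mm10 per the submitters' processing notes. The sources used here do not give how reads were counted (program, annotation, strand, several matches). Both value columns were used. The minimum for a gene was 20 counts, both libraries summed. Scaling used TMM in edgeR 4.0.16 (R 4.3.3) over all genes. Ratios carry exact Clopper-Pearson intervals (95%), CPM exact Poisson intervals, and 0.5 was added to each count for log2 values. Reads are not independent molecules, so intervals and limits cover counting error only. A call was a ratio of 2 or more, either way, with an interval excluding 1. No p-value was computed.

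Transcript length and GC content came from GENCODE M21 principal transcripts, which covered 94.7% of genes counted, matched by symbol. The adjustment subtracted a robust spline fit (statsmodels 0.14.6). The choice of principal transcripts was made after adjusted values were seen. Calls and adjustment were run on simulated counts with Poisson error only. These hold no spread between mice or libraries, so they do not show how the calls fare with such spread. Named were all 38 genes, P2rx7, the sort genes and, of each related list, up to 3 genes per direction past 2-fold with the largest nearer bound. Other genes named are cell type markers, are marked in the text, or share exons or near-identical sequence with a member. The members and lists were chosen with earlier results of these data known. Alternatives were other scalings (DESeq2 1.42.0, upper quartile, total count, TMM without abundant classes), count minimums of 1 and 100, a 1.5-fold limit, 1 added to each count, and the adjustments.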

Additional observations from a re-analysis of the deposited data

How the results depend on the processing

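With 1 library per group, leaving out a replicate is not possible, and no paired analysis was possible because each group holds 1 library. Depth limits Txnrd2, Nqo1, Gsta4 and Srxn1. The number at least 2-fold higher, 2, became 1 with a minimum of 100 counts, because Gstp1 has fewer, 4 after adjustment for length alone (Prdx4 and Hmox1 joined) and 6 with a 1.5-fold limit. The number at least 2-fold lower, 0, became 5 with a 1.5-fold limit (Prdx1, Prdx2, Txn1, Txn2 and Gstm1), where 21.1% of all genes were higher and 18.9% lower. The number lower beyond counting error, 14, became 9 when length and GC content were medians over all basic transcripts, an alternative chosen after seeing the data.

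The median log2 ratio was -0.10 as counted. Adjusting for length turned it to 0.0161, for length and GC content to 0.0863, and with medians over basic transcripts to 0.10. In the same order of settings, signs turned for Sod1 (0.0263, 0.0602 and 0.0386). For Gpx1 they turned to 0.16 and 0.27, and for Gpx4 to 0.16 and 0.15, in the last 2 settings. Gsto1 turned to 0.0059 for length alone, Glrx2 to -0.063 for length and GC content, and Cat to 0.0458 with medians over basic transcripts. The cause was not tested. Under the 4 other scalings no ratio whose interval excluded equality changed sign. Of 252 recomputed ratios of single genes, 176 stayed inside their first counting interval, 66 left it, and 10 of those that had excluded equality changed sign. Of 234 recomputed counts for the related and marker lists, 193 stayed within 1.5 times.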
